A study of Mus musculus with 2 samples.

Results

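Antibody transcripts were followed in tissue labelled as mouse subcutaneous fat, through every gene whose symbol names an immunoglobulin constant region, an immunoglobulin variable segment or the J chain and that had an expected count of at least 5 in at least 1 of 2 libraries. An expected count is the number of reads that the counting model assigns to a gene. Of 43346 annotated genes, 313 had a matching symbol and 50 of these reached the count: 7 heavy chain constant genes, the kappa constant gene Igkc, the lambda constant gene Iglc2, 19 heavy chain V segments, 19 kappa V segments, 1 lambda V segment, Jchain, and Ighmbp2, which matches by spelling only. Ighmbp2 encodes a helicase and is no immunoglobulin gene.

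The series holds 1 group of 2 libraries. Both come from C57BL/6J littermates, male and female pooled, at 8 weeks of age, and the labels give them separate tissue samples, numbered replicate 2 and replicate 1, under a shared donor record. RNA over 200 nt was freed of ribosomal RNA, selected for polyA tails and read in stranded pairs of 76 nt. There is no treated or mutant group, so all differences below are between the replicates, each side is 1 library, and no p-value can be given. The sources used here do not give the number of animals in each library.

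An antibody is built of paired heavy and light chains, and B cells and plasma cells are the cells known to make them. Each chain joins a variable part, assembled from V, D and J segments, to a constant region. The heavy constant region sets the isotype: Ighm gives IgM, Ighd IgD, the Ighg genes IgG, Ighe IgE and Igha IgA. The light chain is kappa or lambda, and the J chain links the subunits of secreted IgM and IgA. An Ighm transcript encodes a membrane receptor or a secreted antibody depending on where its 3′ end is made. In bulk tissue, fewer cells of a type and less RNA per cell cannot be told apart.

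The first pair of sequences shows the bases that separate the forms of Ighm, on which the comparison of its 3′ ends rests. Both follow the last shared base of the fourth constant domain exon on the minus strand of chromosome 12 (GRCm38, GENCODE release M21), and capitals mark the stop codon. The secreted tail lies at chr12:113420867-113420928 in that exon. The membrane tail joins an exon at chr12:113418953-113419068 to the first coding bases of the last exon, chr12:113418826-113418834.
Ighm-201 secreted tail: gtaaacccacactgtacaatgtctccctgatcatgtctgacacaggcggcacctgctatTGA
Ighm-202 membrane tail: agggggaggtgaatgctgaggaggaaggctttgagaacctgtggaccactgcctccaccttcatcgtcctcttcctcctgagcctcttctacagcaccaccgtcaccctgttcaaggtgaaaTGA

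The secreted tail has 62 bases and begins with gt, the letters at which an intron starts, so that splicing out to the membrane exon removes it. The membrane tail has 125 bases.

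The next 4 sequences are the last 150 bases of the V segments with most counts at each locus in each library. Capitals mark the codon of the conserved cysteine, after which the joined part of the antigen binding site begins. All 4 lie on the minus strand. Ighv1-50 (chr12:115119748-115119897) and Igkv1-88 (chr6:68862265-68862414) led in replicate 2, and Ighv1-7 (chr12:114538495-114538644) and Igkv8-30 (chr6:70117061-70117210) led in replicate 1.
Ighv1-50: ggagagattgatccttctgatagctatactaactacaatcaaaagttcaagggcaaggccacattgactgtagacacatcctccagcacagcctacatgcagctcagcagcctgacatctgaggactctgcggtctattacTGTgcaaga
Igkv1-88: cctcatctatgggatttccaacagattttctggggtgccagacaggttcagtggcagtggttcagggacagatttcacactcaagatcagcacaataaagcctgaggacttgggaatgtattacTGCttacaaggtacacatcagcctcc
Ighv1-7: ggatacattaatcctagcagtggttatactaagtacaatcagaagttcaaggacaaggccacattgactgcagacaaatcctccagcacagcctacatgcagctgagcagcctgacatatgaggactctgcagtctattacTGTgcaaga
Igkv8-30: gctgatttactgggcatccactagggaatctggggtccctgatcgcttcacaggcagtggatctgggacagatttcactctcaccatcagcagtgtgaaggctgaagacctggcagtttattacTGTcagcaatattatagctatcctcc

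The heavy chain segments keep 6 bases after this codon and the kappa segments 23, before the join to D or J. Over whole segment transcripts, Ighv1-7 was 87.6% identical to its nearest other heavy segment, Ighv1-4, and Igkv8-30 was 90.2% identical to Igkv8-24. For Ighv1-50 the nearest was Ighv1-72 at 91.4%, and for Igkv1-88 it was Igkv1-99 at 79.8%. Among members, 5 of 19 heavy segments and 3 of 19 kappa segments had another segment of the locus at 95% identity or more. Reads that match several segments are divided by the model, but the counts of those 8 were whole numbers in both libraries. A whole count does not show that every read came from the segment named. Of the members' counts, 3 were not whole numbers (tolerance 0.005), all in replicate 1. They were those of Ighv1-7 (200.22), Ighv1-4 (10.78) and Igkv6-23 (41.95). The last has its nearest other segment, Igkv6-25, at 89.5% identity.

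Annotated genes took 57500952 expected counts in replicate 2 and 53601200 in replicate 1. White adipocyte markers were high in both libraries, with a summed TPM (a relative transcript level that accounts for transcript length) of 45256 in replicate 2 and 20986 in replicate 1. The 9 markers of glandular epithelium, which are keratins, junction and adhesion proteins, the splicing regulator Esrp1 and the antibody receptor Pigr, summed to 13.9 TPM in replicate 2 and 758 TPM in replicate 1. In replicate 2 all 12 adipocyte markers were over 2-fold higher, and in replicate 1 all 9 epithelial markers, so the libraries differ in far more than their antibody genes.

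For ratios, counts were scaled with TMM factors, and genes averaging 10 or more scaled counts were tested. A gene was called over 2-fold higher in a library where the exact 95% interval of its ratio, replicate 2 over replicate 1, was entirely above 2 or below 0.5. The intervals cover counting error only. Of 17167 genes tested, 9.96% were called higher in replicate 2, 14.3% higher in replicate 1 and 24.3% in either direction. By library total in place of TMM every log2 ratio falls by 0.51, and the share of called genes that are higher in replicate 1 becomes 84.5%, against 59.0% with TMM. Of all genes tested by library total, 4.30% were called higher in replicate 2 and 23.5% higher in replicate 1. By spike-in total, 4.76% were higher in replicate 2 and 22.3% in replicate 1. Counts of called genes given below for gene lists, with TMM or by library total, are to be read beside the shares of the same scaling. Of the members, 21 could be tested, and 5 of them were called in favour of replicate 2 and 10 in favour of replicate 1. The members were chosen on the same counts, so these numbers describe them and are no evidence beyond the choice. By library total and by spike-in total the 5 and the 10 were called as well, with 3 more in replicate 1 for 13 there.

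**Figure D1:**
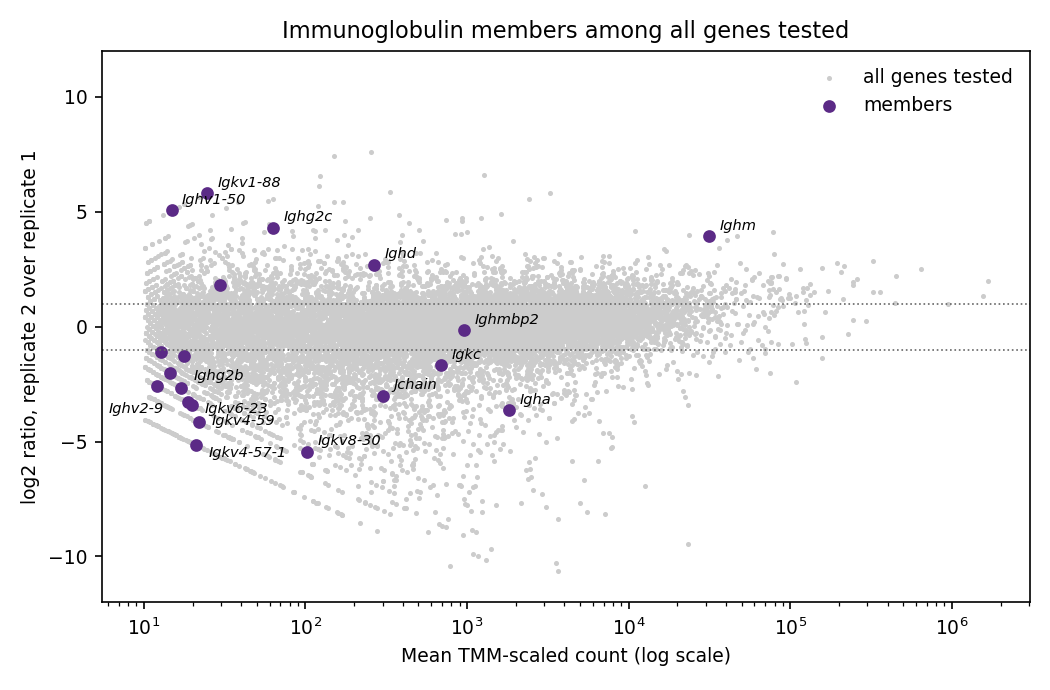
Mean TMM-scaled count of each gene (x axis, log scale) against its log2 ratio of replicate 2 over replicate 1 (y axis), with grey points for all genes tested and purple points for members, dotted lines at 2-fold, and names for members called over 2-fold apart and for Ighmbp2. Ighm is the rightmost of the members and stands above the upper line, while Igha, Jchain, Igkc and most V segments drawn lie below the lower line. Genes with a count of 0 in a library, such as Ighv1-7, have no ratio and are not drawn.

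The outcome of the rule depended on the library. In replicate 2, 16 members reached the count of 5, against 46 in replicate 1. Both libraries passed 12 members, 4 passed in replicate 2 only and 34 in replicate 1 only. Of the 19330 annotated genes that reached 5 counts in either library, 87.4% did so in both, 3.11% in replicate 2 only and 9.47% in replicate 1 only. Just inside the threshold were Ighv1-14, Ighv5-4, Igkv4-50 and Igkv1-110, at 0 or 1 count in replicate 2 and 5 or 6 counts in replicate 1, and Igkv4-91, at 6 counts in replicate 2 and 0 in replicate 1. Just outside it were Ighv9-3 and 4 kappa segments, at 0 to 2 counts in replicate 2 and 4 counts in replicate 1. Ighv1-14 is annotated as a pseudogene, the only one among the members. Ighmbp2, the helicase gene, had 5.24 TPM (787 counts) in replicate 2 and 9.55 TPM (1159 counts) in replicate 1, with a scaled ratio of 0.904 (0.825 to 0.991). All 66 V pseudogenes of the heavy and kappa loci together had 0 counts in replicate 2 and 8.65 in replicate 1.

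The heavy constant genes divided the libraries by isotype. Ighm, the IgM heavy chain, had 867 TPM (51121 counts) in replicate 2 and 85.6 TPM (4447 counts) in replicate 1, a mean of 476 ± 553 TPM (SD, n = 2). Its scaled count was 15.3-fold higher in replicate 2 (95% interval 14.8 to 15.8). By TPM it ranked 127 among annotated genes in replicate 2 and 1768 in replicate 1.

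Igha, the IgA heavy chain, went the other way. It had 6.04 TPM (238 counts) in replicate 2 and 117 TPM (3893 counts) in replicate 1, a mean of 61.4 ± 78.3 TPM (SD, n = 2). The scaled count was 12.3-fold higher in replicate 1 (10.8 to 14.1). Ighm therefore held 98.3% of the summed heavy constant TPM in replicate 2 and 41.5% in replicate 1, while Igha held 0.685% in replicate 2 and 56.6% in replicate 1. Replicate 1 carried more IgA than IgM heavy chain transcript per length, and replicate 2 carried almost none but IgM.

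Ighd, the IgD heavy chain that naive B cells make beside IgM, had 5.73 TPM (399 counts) in replicate 2 and 1.37 TPM (82 counts) in replicate 1. It was 6.48-fold higher in replicate 2 (5.10 to 8.32). Relative to Ighm, it had 0.661% of the TPM in replicate 2 and 1.60% in replicate 1.

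The 4 IgG heavy chain genes were low in both libraries, with a summed 3.06 TPM (120 counts) in replicate 2 and 2.43 TPM (80 counts) in replicate 1. Their subclasses differed. Ighg2c, the IgG2a-type gene of C57BL/6 mice, had 104 counts in replicate 2 and 7 in replicate 1 and was 19.8-fold higher in replicate 2 (9.27 to 50.4). It held 86.7% of the IgG counts in replicate 2 (95% Clopper-Pearson interval 79.3 to 92.2) and 8.75% in replicate 1 (3.59 to 17.2). Ighg2b had 4 counts in replicate 2 and 34 in replicate 1 and was 6.38-fold higher in replicate 1 (2.28 to 24.8).

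Ighg1 had 9 counts in replicate 2 and 29 in replicate 1, and its ratio of 0.413 (0.172 to 0.897) did not clear 2-fold. Ighg3, at 3 counts in replicate 2 and 10 in replicate 1, was too low to test. Ighe, the IgE heavy chain, had 1 count in replicate 2 and 0 in replicate 1 and is no member. By TPM, the order of the heavy constant genes was Ighm, Igha, Ighd, Ighg2c, Ighg1, Ighg2b and Ighg3 in replicate 2. In replicate 1 the order was Igha, Ighm, Ighd, Ighg2b, Ighg1, Ighg3 and Ighg2c. From Ighd downward in replicate 1 each gene had at most 82 counts.

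**Figure D2:**
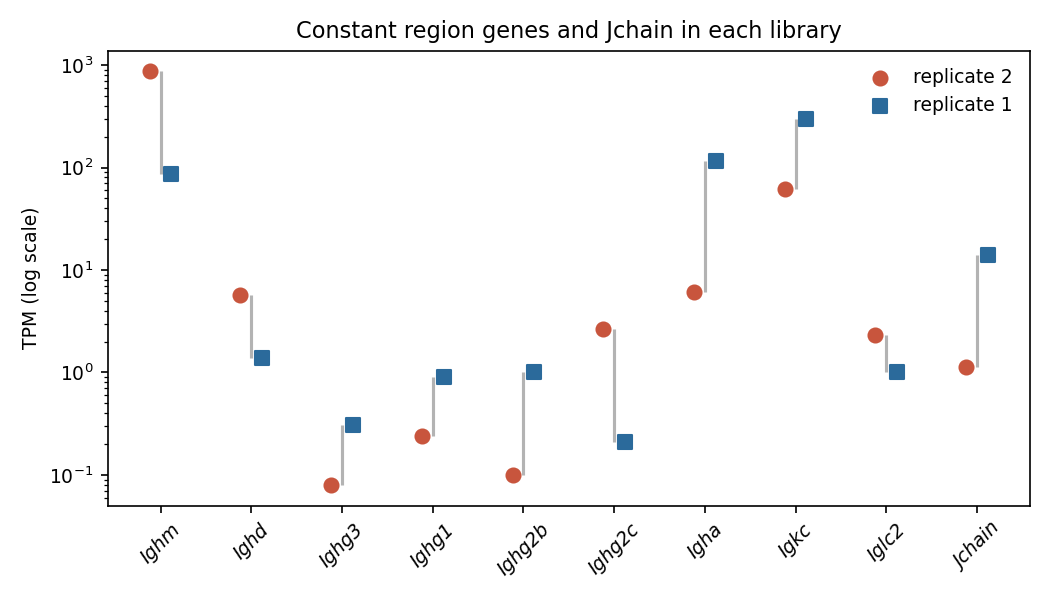
TPM (y axis, log scale) of the 7 heavy constant genes, the kappa and lambda constant genes and Jchain (x axis) in replicate 2 (red circles) and replicate 1 (blue squares), 1 point per library, joined by a grey line. Ighm, Ighd, Ighg2c and Iglc2 are higher in replicate 2, and Igha, Igkc, Jchain, Ighg1, Ighg2b and Ighg3 higher in replicate 1.

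The kappa constant gene did not follow Ighm. Igkc, the kappa constant region, had 61.6 TPM (283 counts) in replicate 2 and 296 TPM (1208 counts) in replicate 1, a mean of 179 ± 166 TPM (SD, n = 2). It was 3.21-fold higher in replicate 1 (2.81 to 3.66). Within each library, the TPM of Ighm was 14.1 times that of Igkc in replicate 2 and 0.289 times in replicate 1. The library richer in IgM heavy chain transcript was thus the poorer in kappa transcript.

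The level of Igkc per length is approximate, because its transcript in the tables is 323 nt long and only 104 nt of that counts as effective length in replicate 2. The Igkc transcript of GENCODE release M21 has 532 nt. By counts, which are not divided by length and so weigh the longer Ighm more, Ighm over Igkc was 181 in replicate 2 (161 to 204) and 3.68 in replicate 1 (3.45 to 3.93).

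Iglc2, a lambda constant gene, had 40 counts in replicate 2 and 15 in replicate 1, and its ratio of 3.55 (1.92 to 6.92) did not clear 2-fold. Iglv1, the only lambda V segment with a count, had 5 counts in replicate 2 and 27 in replicate 1. Its ratio was 0.247 (0.0742 to 0.650) with TMM, not called, and it was called higher in replicate 1 by library total and by spike-in total. Kappa made up 96.3% of the light constant TPM in replicate 2 and 99.7% in replicate 1. By counts, the kappa share was 87.6% in replicate 2 (83.5 to 91.0) and 98.8% in replicate 1 (98.0 to 99.3). Lambda is Iglc2 alone in these shares, since the other lambda constant genes were not analysed here, so the kappa shares are upper limits.

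Jchain, which joins IgM and IgA subunits and is made by plasma cells, had 1.12 TPM (58 counts) in replicate 2 and 14.0 TPM (618 counts) in replicate 1. It was 8.00-fold higher in replicate 1 (6.11 to 10.7). Relative to Igha, Jchain counts were 24.4% in replicate 2 (18.0 to 32.6) and 15.9% in replicate 1 (14.6 to 17.3). Relative to Ighm and Igha together they were 0.113% in replicate 2 (0.0857 to 0.146) and 7.41% in replicate 1 (6.82 to 8.04). The intervals relative to Igha lay close together without overlapping, and those relative to both genes lay far apart.

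The V segments were first summed over all annotated segments of a locus, with no count threshold, so that these sums do not rest on the choice of members. The 175 heavy chain V segments had 66 counts in replicate 2 and 434 in replicate 1 and were 4.94-fold higher in replicate 1 (3.80 to 6.50). The 103 kappa V segments had 103 counts in replicate 2 and 592 in replicate 1 and were 4.32-fold higher in replicate 1 (3.50 to 5.37). Both loci thus moved with Igkc and Igha.

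Set beside the constant regions of the same library, heavy chain V counts were 0.127% of heavy constant counts in replicate 2 (0.0984 to 0.162) and 5.10% in replicate 1 (4.62 to 5.62). With Ighm left out of the constant regions, a sum made after its values were seen, they were 8.71% in replicate 2 (6.67 to 11.2) and 10.7% in replicate 1 (9.67 to 11.8), and the intervals overlap. By TPM the same proportion without Ighm was 58.9% in replicate 2 and 61.0% in replicate 1. Kappa V counts were 36.4% of Igkc counts in replicate 2 (28.8 to 45.8) and 49.0% in replicate 1 (44.3 to 54.1). The heavy chain proportion thus separated the libraries where Ighm was counted and not where it was left out.

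All immunoglobulin genes together had 52434 counts in replicate 2 and 11396 in replicate 1. Without Ighm they had 1313 counts in replicate 2 and 6949 in replicate 1, which is 3.97-fold higher in replicate 1 (3.75 to 4.22). A single gene thus turned the direction of the whole family. The direction of each of these sums was unchanged by library total or spike-in total.

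Individual segments were uneven. Ighv1-7 had 0 counts in replicate 2 and 200.2 in replicate 1, at least 50.1-fold higher in replicate 1 when replicate 2 is set at the floor of 3 counts, while the exact 95% interval of its split begins at 40.3-fold. It took 46.1% of the heavy V counts of replicate 1 (41.3 to 50.9). Ighv2-9 followed there, with 3 counts in replicate 2 and 39 in replicate 1, and was called higher in replicate 1.

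In replicate 2 the leading heavy segment was Ighv1-50, with 25 counts in replicate 2 and 1 in replicate 1, which is 37.9% of the heavy V counts of replicate 2 (26.2 to 50.7). Ighv2-5 came next, with 15 counts in replicate 2 and 0 in replicate 1, at least 6.66-fold higher in replicate 2 by the same floor. Its exact interval begins at 4.78-fold, and its mean scaled count of 8.65 was too low to test. Its nearest copy, Ighv2-4, is 96.9% identical. Ighv1-72 had 0 counts in replicate 2 and 18 in replicate 1, and Ighv1-55 had 5 in replicate 2 and 8 in replicate 1. The other 13 heavy segment members had 0 to 2 counts in replicate 2 and 5 to 13 in replicate 1. Neither library's leading heavy segment had more than 1 count in the other.

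The kappa locus showed the same arrangement. Igkv8-30 had 4 counts in replicate 2 and 231 in replicate 1 and was 43.4-fold higher in replicate 1 (16.7 to 161). It held 39.0% of the kappa V counts of replicate 1 (35.1 to 43.1). Igkv1-88 had 42 counts in replicate 2 and 1 in replicate 1, a ratio of 55.9 (9.50 to 2261). It held 40.8% of the kappa V counts of replicate 2 (31.2 to 50.9).

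Other kappa segments called higher in replicate 1 were Igkv4-59, with 2 counts in replicate 2 and 48 in replicate 1, and Igkv4-57-1, with 1 in replicate 2 and 47 in replicate 1. Igkv6-23 was also called, with 3 counts in replicate 2 and 41.95 in replicate 1. Igkv4-57, with 7 counts in replicate 2 and 20 in replicate 1, was the nearest to even of these. The other 13 kappa members had 0 to 6 counts in replicate 2 and 0 to 24 in replicate 1. The leading segment of each locus and library accounted for 37.9% to 46.1% of its locus.

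**Figure D3:**
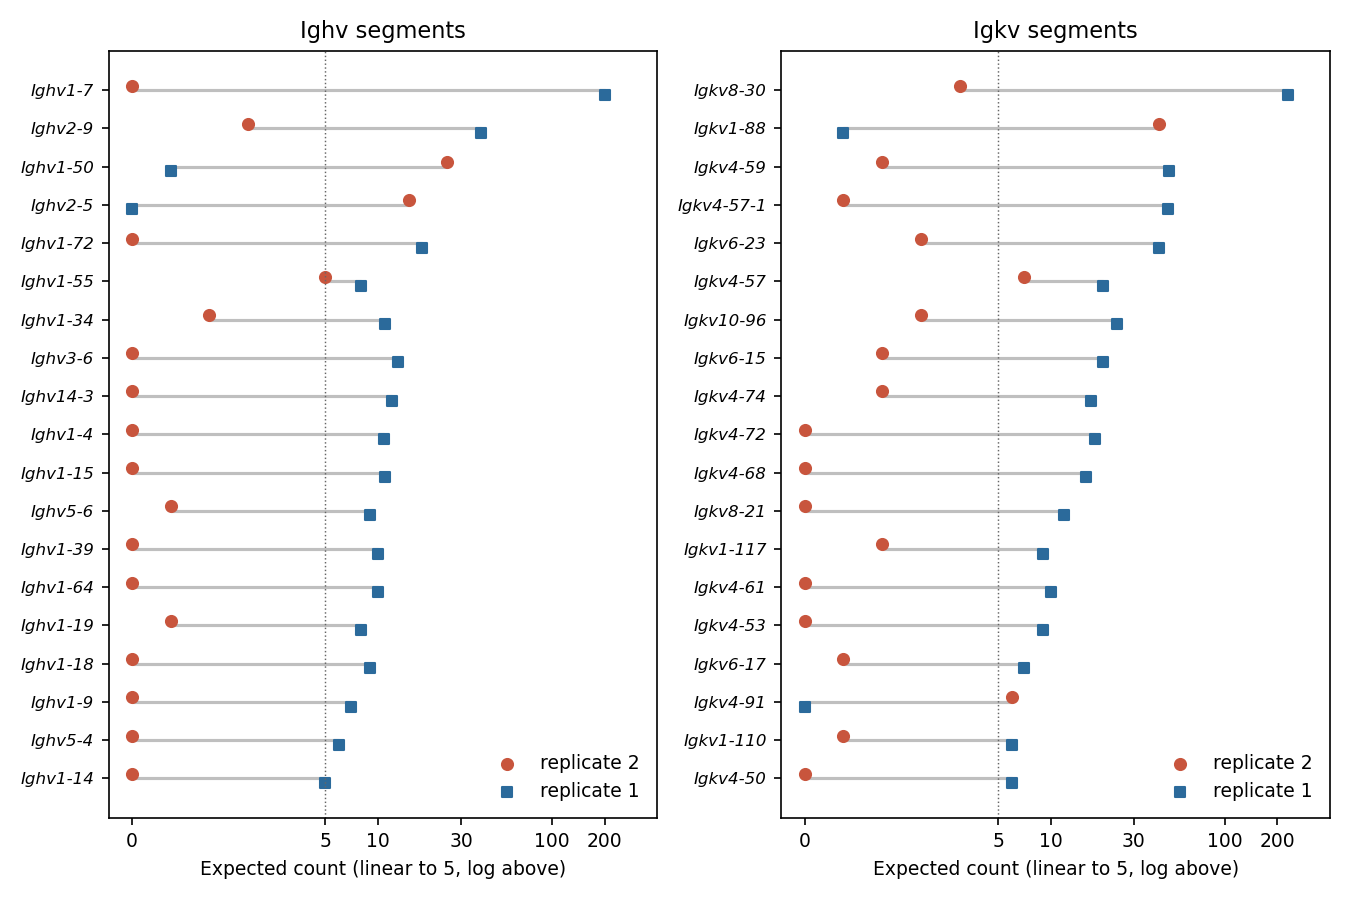
Expected count (x axis, linear up to 5 and logarithmic above) of the 19 heavy (left) and 19 kappa (right) V segment members, ordered by mean scaled count, in replicate 2 (red circles) and replicate 1 (blue squares), with the threshold of 5 counts dotted. Ighv1-50, Ighv2-5, Igkv1-88 and Igkv4-91 have their higher count in replicate 2 and the other 34 segments in replicate 1.

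By family, Ighv1 segments held 59.1% of heavy V counts in replicate 2 and 75.3% in replicate 1, and Ighv2 segments held 28.8% in replicate 2 and 10.4% in replicate 1. Of kappa V counts, the Igkv1 family held 44.7% in replicate 2 and 3.55% in replicate 1. The Igkv8 family held 4.85% in replicate 2 and 41.7% in replicate 1, and the Igkv4 family 19.4% in replicate 2 and 33.3% in replicate 1.

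A count was seen for 16 heavy segments in replicate 2 and 41 in replicate 1. Thinned to the 66 counts of replicate 2, replicate 1 would show 20.2 heavy segments, against 16 in replicate 2. For kappa, 31 segments had a count in replicate 2 and 40 in replicate 1, and at 103 counts replicate 1 would show 22.9, against 31 in replicate 2. The effective number of segments, the inverse Simpson number, was 4.76 in replicate 2 and 4.35 in replicate 1 for heavy V, and 5.44 in replicate 2 and 5.60 in replicate 1 for kappa V.

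The leading segments differed between the libraries. At equal depth the number of segments expected in replicate 1 was above that seen in replicate 2 for heavy V and below it for kappa V. No spread was computed for these expected numbers, so they cannot tell whether the libraries differ. Both libraries had counts for 8 heavy segments, which is 50.0% of those seen in replicate 2 and 19.5% of those seen in replicate 1. For kappa the 20 shared segments were 64.5% of those in replicate 2 and 50.0% of those in replicate 1. These overlaps include segments with any count. Of the segments seen in replicate 2, only 3 of 16 heavy and 3 of 31 kappa segments reached 5 counts. The overlap to be had from counts this low was not computed, nor was the share over all genes with any count. The overlaps therefore cannot tell a difference in segment use from shallow counting. Outside the leaders Ighv1-7 and Igkv8-30, a pair left out after its values were seen, all V counts were 170 in replicate 2 and 621.8 in replicate 1, which is 2.75-fold higher in replicate 1 (2.32 to 3.28), against 4.54-fold with them (3.87 to 5.37).

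The 3′ ends of Ighm differed between the libraries beside its level. The secreted transcript Ighm-201 had 612 TPM in replicate 2 and 42.6 TPM in replicate 1, and the membrane transcript Ighm-202 had 255 TPM in replicate 2 and 43.0 TPM in replicate 1. The secreted form was 22.4-fold higher in replicate 2 (21.4 to 23.5), and the membrane form was 9.24-fold higher (8.86 to 9.65). Its secreted share was 70.6% of TPM in replicate 2 and 49.7% in replicate 1. By counts the share was 67.4% in replicate 2 (67.0 to 67.8) and 46.0% in replicate 1 (44.6 to 47.5). Reads in the exons that both forms share are divided by the counting model, and the intervals do not include that uncertainty.

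**Figure D4:**
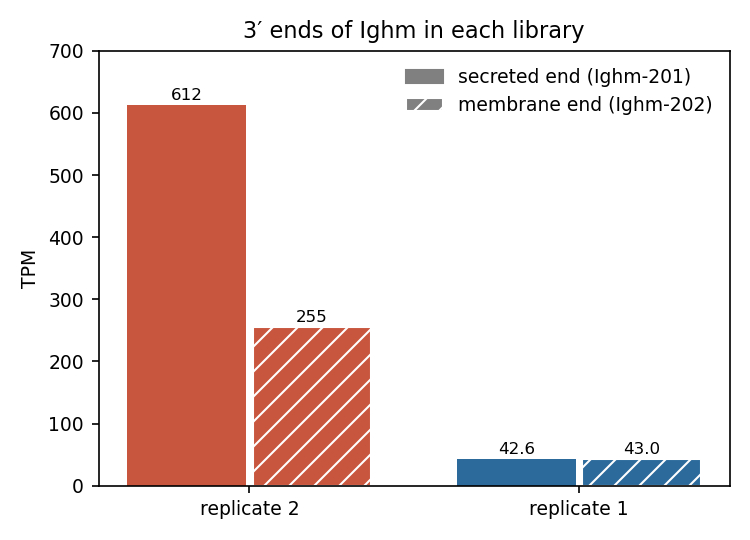
TPM (y axis, from 0) of the secreted (plain bars) and membrane (hatched bars) transcripts of Ighm in replicate 2 (red) and replicate 1 (blue), 1 library per bar with its value above it. Both forms are higher in replicate 2, where the secreted bar of 612 TPM stands above the membrane bar of 255 TPM, while the bars of replicate 1 are nearly level at 42.6 and 43.0 TPM.

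No such mixture was seen in the other isotypes, though the IgG genes had few counts. Of Igha, the secreted transcript had 5.99 TPM in replicate 2 and 117 TPM in replicate 1, and the membrane transcript had 0.050 TPM in replicate 2 and 0.090 TPM in replicate 1. All counts of Ighg1, Ighg2b and Ighg2c were assigned to their secreted transcripts. Ighd was the reverse, with 397.47 counts in replicate 2 and 82 in replicate 1 on Ighd-202, the transcript that ends farthest downstream.

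The genes of the cells that make antibodies were set beside these values. Among 17 B cell markers, 15 could be tested, of which 2 were called higher in replicate 2 and 1 higher in replicate 1. Over all genes tested the shares were 9.96% higher in replicate 2 and 14.3% higher in replicate 1. Their median log2 ratio with TMM was 0.98, towards replicate 2, against 0.01 over all genes tested. Their summed TPM was 111 in replicate 2 and 103 in replicate 1, a sum weighted to its highest members. The highest member was Ebf1, a transcription factor that fat cells also express, with 70.9 TPM in replicate 2 and 38.8 TPM in replicate 1. Next came Cd37, a tetraspanin of leukocytes, with 27.5 TPM in replicate 2 and 35.1 TPM in replicate 1. Fcer2a, the low affinity IgE receptor of B cells, had 17 counts in replicate 2 and 1 in replicate 1. Ralgps2, the marker called higher in replicate 1, had 1.19 TPM in replicate 2 and 6.63 TPM in replicate 1.

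The defining B cell genes named here were low in both libraries. Ms4a1, which encodes CD20, had 0.25 TPM in replicate 2 and 0.090 TPM in replicate 1. Cd79a, the signalling partner of membrane IgM, had 2.71 TPM in replicate 2 and 1.60 TPM in replicate 1, and Cd79b had 2.74 TPM in replicate 2 and 3.91 TPM in replicate 1. None of these 3 was called: the ratio was 4.29 for Ms4a1 (1.98 to 10.3), 2.63 for Cd79a (1.98 to 3.52) and 1.00 for Cd79b (0.784 to 1.28). Other B cell markers lay below 1, among them Cd22 at 0.495 (0.391 to 0.622) and Cd72 at 0.434 (0.335 to 0.556).

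Of 16 plasma cell markers, all tested, 1 was called higher in replicate 2 and 3 higher in replicate 1, beside 9.96% and 14.3% of all genes tested. Their summed TPM was 181 in replicate 2 and 389 in replicate 1. The median log2 ratio of the list was -0.27. Its highest member, the transcription factor Xbp1, was not called, with a ratio of 0.801 (0.778 to 0.826). Uncalled markers lay on both sides of 1, with Edem1 at 1.77 (1.70 to 1.84) and Creld2 at 0.619 (0.569 to 0.674). Sdc1, the surface proteoglycan syndecan that epithelium also makes, had 17.2 TPM in replicate 2 and 70.2 TPM in replicate 1. Prdm1, the transcription factor Blimp that drives plasma cell differentiation, had 0.98 TPM in replicate 2 and 11.6 TPM in replicate 1. Tnfrsf17, the survival receptor BCMA, had 2.36 TPM in replicate 2 and 1.06 TPM in replicate 1, the only plasma marker called higher in replicate 2. Mzb1, a chaperone of antibody assembly, had 6 counts in replicate 2 and 38 in replicate 1, and its interval of 0.0726 to 0.501 just reached 0.5. By library total, Tnfrsf17 and both B cell markers higher in replicate 2 were no longer called, 3 B cell markers were called higher in replicate 1, and 6 plasma cell markers, Mzb1 among them, were called higher in replicate 1.

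The antibody secretion list, the chaperones and stress genes of the endoplasmic reticulum, had 18 members tested and none called in either direction. By library total 3 were called higher in replicate 1. The highest member, the chaperone Hspa5, had 159 TPM in replicate 2 and 483 TPM in replicate 1, but its scaled ratio was 0.716 (0.697 to 0.737). Of the B cell receptor signalling list, 23 were tested, none was higher in replicate 2 and 3 were higher in replicate 1, among them the adaptors Dapp1 and Pik3ap1. By library total 8 were higher in replicate 1. The median log2 ratio was -0.11 over the secretion list and -0.03 over the signalling list, against 0.01 over all genes tested.

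Of the antibody transport genes, Pigr and Fcgrt were called in opposite directions. Pigr, which is also 1 of the 9 epithelial markers, is the receptor that carries IgA and IgM with J chain into secretions. It had 0.10 TPM in replicate 2 and 25.6 TPM in replicate 1 and was 121-fold higher in replicate 1 (74.2 to 212). Ccl28, the epithelial chemokine that draws IgA plasma cells to mucosa and mammary gland, had 5 counts in replicate 2 and 270 in replicate 1. Fcgrt, the neonatal Fc receptor that recycles IgG, had 215 TPM in replicate 2 and 149 TPM in replicate 1 and was called higher in replicate 2, a call that was lost by library total. Of the 11 Fc receptor and transport genes tested, 2 were called in each direction. Of all genes tested, 9.96% were called higher in replicate 2 and 14.3% higher in replicate 1. By library total none of the 11 was higher in replicate 2 and 4 were higher in replicate 1, beside 4.30% and 23.5% of all genes tested. Of the 14 survival and homing genes tested, 1 was called in each direction, Tnfrsf17 and Ccl28.

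Genes of V(D)J joining and switching gave little. Of 15, 11 could be tested and only Nhej1, a DNA end joining factor, was called, higher in replicate 2. Rag1, the recombinase of V(D)J joining, had 4 counts in replicate 2 and 8 in replicate 1. Vpreb3, of the early B cell list, was called higher in replicate 2, with 26 counts in replicate 2 and 5 in replicate 1; it was 1 of 2 tested in that list. Neither call held by library total. By it, 3 of the 11 joining and switching genes were called higher in replicate 1, beside 23.5% of all genes tested.

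**Figure D5:**
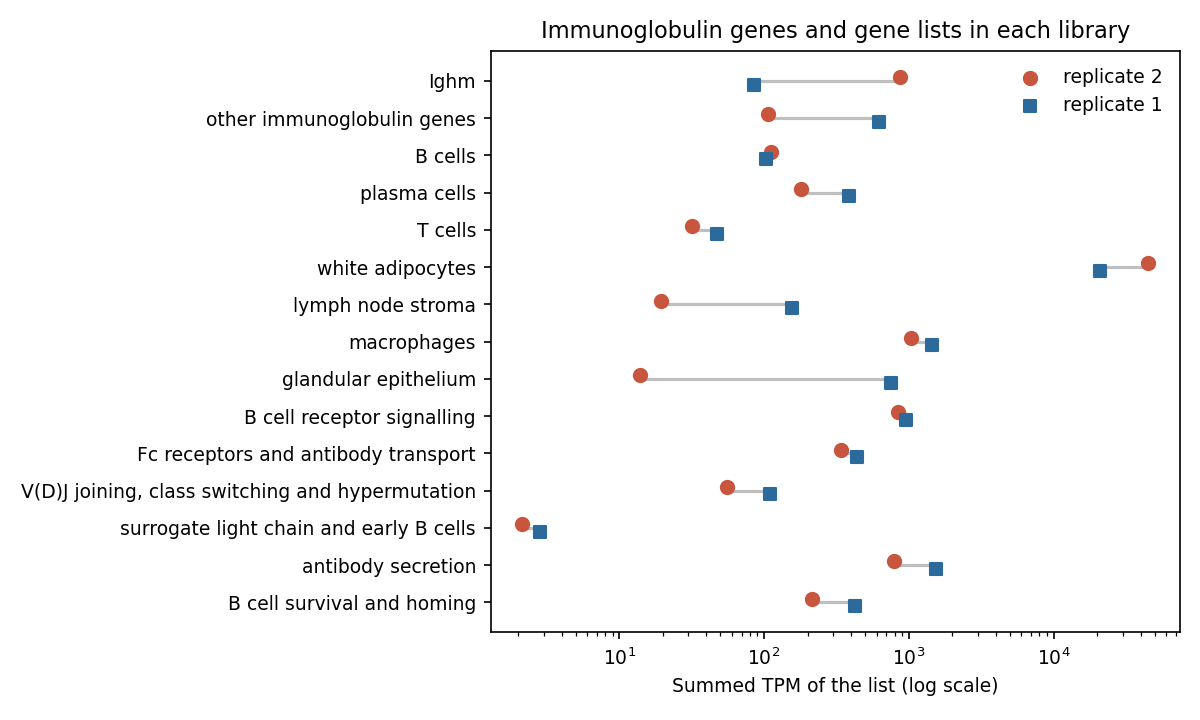
Summed TPM (x axis, log scale) of Ighm, of the other immunoglobulin genes and of each gene list (y axis) in replicate 2 (red circles) and replicate 1 (blue squares), 1 library per point. Ighm and the white adipocyte list are higher in replicate 2, and the other immunoglobulin genes and the glandular epithelium list are higher in replicate 1. The sum of the B cell list, weighted to Ebf1 and Cd37, is nearly level at 111 and 103 TPM.

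Markers of other cells were also compared between the libraries. With 2 libraries, any gene that differs goes with 1 side or the other, so a shared direction is no evidence of a link. The glandular epithelium list, 9 of 9 called higher in replicate 1, went with the higher Igha, Jchain, Igkc and V segments of replicate 1, and the white adipocyte list, 12 of 12 called higher in replicate 2 (10 by library total), with the higher Ighm of that library. No marker of either list was at 0 in a library. Of lymph node stroma, Ccl21a, a chemokine of lymphatic vessels and nodes, had 14.7 TPM in replicate 2 and 153 TPM in replicate 1, and Ccl19 had 3.85 TPM in replicate 2 and 1.76 TPM in replicate 1. None of 9 macrophage markers was called. Of 15 T cell markers 2 were called higher in replicate 2 and 1 higher in replicate 1, beside 9.96% and 14.3% of all genes tested. By library total Ccl19 lost its call, and of T cell markers 1 was higher in replicate 2 and 3 in replicate 1. The part of these other cells in the immunoglobulin results was not tested.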

How the data were processed

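Per the file headers and the notes deposited beside the tables, the authors aligned reads to transcripts of mouse build mm10 with GENCODE release M4. No source used here names the counting program, but RSEM writes tables with such columns. The deposited tables give an expected count, TPM and FPKM per gene and transcript, and, per transcript, its percent of the TPM of its gene. Deposited tables on build mm9 were not used.

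Symbols were matched by identifier for 42462 of 43346 genes, and coordinates, transcript names and sequences are from GENCODE release M21. Expected counts were rounded and scaled with TMM factors from edgeR 4.0.16 (R 4.3.3), 0.837 in replicate 2 and 1.20 in replicate 1. Each ratio has an exact 95% interval by the Clopper-Pearson method, from how the 2 counts divide (scipy 1.17.1); they and the floor of 3 counts cover counting error only. The script was tested on simulated data. Segment identity is 100% less the edit distance over the longer segment (edlib).

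Named were all constant members, Jchain, Ighmbp2 and lambda members, the 6 heavy and 6 kappa segments of highest mean count, called members, and, from each list, the 4 highest genes and called genes, as far as a result turned on them; Ms4a1, Cd79a, Cd79b, Cd22, Mzb1, Rag1, threshold and pseudogene members were added after their values were seen. Members and lists were chosen with earlier results of these data known. Alternatives covered count thresholds, DESeq2 1.42.0 size factors, library and spike-in totals, filters, FPKM, posterior means, pseudocounts and each replicate alone. Some genes of the lists are not reported here.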

Additional observations from a re-analysis of the deposited data

How the results depend on the processing

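The number of members was 50, and 113 at a count of 1 or more in either library, 12 at 5 in both libraries, 16 to 46 leaving out each replicate in turn. At a mean scaled count of at least 100, calls among members fell to 2 for replicate 2 and 4 for replicate 1. Genome-wide, that filter gave calls for replicate 2 at 10.6% of tested genes and for replicate 1 at 12.5%. With no filter, 6 members were called for replicate 2 and 16 for replicate 1, since more members were tested. The genome-wide shares were then 7.87% for replicate 2 and 11.5% for replicate 1. How many members each of these filters left to test is not given here. The kappa share by counts was 87.6% in replicate 2 and 98.8% in replicate 1, and the secreted share of Ighm by counts 67.4% in replicate 2 and 46.0% in replicate 1. The exponential of the Shannon entropy gave 7.76 effective heavy segments in replicate 2 and 11.2 in replicate 1, and 13.1 kappa segments in replicate 2 and 12.3 in replicate 1. Over segments with 5 or more counts, heavy V had 2.31 in replicate 2 and 3.47 in replicate 1, and kappa V 1.64 in replicate 2 and 4.71 in replicate 1. Which library had the higher effective number therefore depended on the index at the heavy locus and, between Simpson and Shannon numbers, at the kappa locus. Of 65 values that answer a comparison, 14 were the main values themselves, 35 stayed the same and 16 moved. DESeq2 size factors changed no call of a member with a ratio; by library total or spike-in total Iglv1 was among 3 more called. No paired analysis was possible because there is a single group. Depth limits the V segments, with 66 heavy, 103 kappa and 5 lambda V counts in replicate 2, and the IgG genes other than Ighg2c, with 3 to 9 counts there.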
